A study of Mus musculus with 6 samples.

Results

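The mitochondrial ribosomal protein genes are the nuclear genes named Mrpl or Mrps, for proteins first assigned to the large or the small subunit of the ribosome inside mitochondria. They were taken from the deposited count table as every row whose symbol begins with Mrpl or Mrps followed by a digit, without pseudogenes, which gave 78 of the table's 14481 genes, 49 Mrpl and 29 Mrps. The 6 libraries hold polyadenylated RNA of wild-type mouse CD8+ T cells, the cytotoxic lymphocytes. All cells were sorted, activated for 1 day on anti-CD3 with soluble anti-CD28 (1 µg/ml each) and interleukin 2 (0.1 µg/ml), and then given conditioned medium (CM) of astrospheres until RNA was taken at day 3. In 3 libraries, called STAT3+ CM, the medium came from pSTAT3+ astrospheres, with the phosphorylated form of the transcription factor STAT3, and in the other 3, called STAT3- CM, from pSTAT3- astrospheres. No library of cells without such medium was analysed here. Separate animals or cultures are not stated for the replicates, and the p-values here rest on the spread among these 6 libraries, which may be technical.

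The mitochondrial ribosome makes the few respiratory chain proteins that are encoded by mitochondrial DNA. Its RNA comes from mitochondrial DNA, while all of its proteins are made in the cytosol from nuclear genes and imported. T cells enlarge their mitochondria when they are activated, and mitochondrial translation is known to be needed for the proliferation and effector function of CD8+ T cells.

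Total counts ran from 43346089 to 53630514 per library, and all 78 genes passed the filter on low counts. Levels are CPM, counts divided by the library total and its normalization factor and brought to a common scale. Fold changes are log2 ratios of STAT3+ CM over STAT3- CM, with their standard error (SE). All 9 CD8+ T cell markers looked for were present, with a summed level of 3132 to 3885 CPM in STAT3+ CM against 3132 to 3320 CPM in STAT3- CM. Of 12 dendritic cell markers 7 could be tested, with a summed level of 95.3 to 119.9 CPM in STAT3+ CM against 132 to 185 CPM in STAT3- CM. At an unadjusted p under 0.05 by edgeR stood 4 of them, all lower, where 2.3% of all genes tested were lower. Flt3, Xcr1, Clec9a, Siglech and Cd209a had no row in the table. Of 8 myeloid markers 4 had a row. The 3 of them that passed the filter summed to 3.48 to 5.57 CPM in STAT3+ CM against 3.28 to 10.24 CPM in STAT3- CM. Of 7 astrocyte markers 3 had a row, summing to 9.85 to 19.38 CPM in STAT3+ CM against 15.4 to 18.7 CPM in STAT3- CM. All 5 natural killer cell markers, of which Nkg7 and Eomes are also genes of activated CD8+ T cells, had a row. The 3 of them that passed the filter summed to 717 to 738 CPM in STAT3+ CM against 629 to 682 CPM in STAT3- CM. The B cell markers Cd79b and Ighm summed to 308 to 348 CPM in STAT3+ CM against 279 to 327 CPM in STAT3- CM, and 3 CD4+ T cell markers summed to 3.12 to 5.24 CPM in STAT3+ CM against 2.85 to 4.13 CPM in STAT3- CM. The myeloid genes Csf1r, Mrc1, S100a8 and S100a9 had no row. The part of other cells in the results was not tested. In bulk samples fewer cells of a type and less RNA per cell cannot be told apart.

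The only comparison asks how the medium of pSTAT3+ against pSTAT3- astrospheres affects gene expression in CD8+ T cells. Of the 78 mitochondrial ribosomal protein genes 76 had a positive log2 fold change and 2 a negative one, beside 50.2% positive among the 14319 genes tested. The differences were small, with a median log2 fold change of 0.17, or 1.13-fold, beside 0.00076 over all genes tested. The middle range of the 78, between their quartiles, was 0.10 to 0.21, and the extremes were -0.11 in Mrps6 and 0.32 in Mrpl57. No gene of the 78 passed the threshold, an adjusted p of 0.05 (Benjamini-Hochberg over all genes, edgeR's quasi-likelihood test), and the share called among all genes tested was 0%. The smallest adjusted p of the 78 by edgeR was 0.989. At an unadjusted p under 0.05 stood 0 of the 78, where the share over all genes tested was 3.64%, made of 1.34% higher and 2.3% lower. DESeq2 called 0 of the 78, where it called 0.331% of all genes, and limma-voom called 0, and neither gave any of them an unadjusted p under 0.05. The SE of a single log2 fold change ran from 0.11 to 0.22, apart from 0.44 in the barely detected Mrpl53, so the typical difference was close to 1 SE.

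The 78 genes ranked the libraries much alike, within each medium as well as between the media. Of the 78, 67 had their highest level of all 6 libraries in STAT3+ CM replicate 2, which held the highest level of 19.6% of all genes tested. Likewise 58 had their lowest level in STAT3- CM replicate 3, which held the lowest level of 24.8% of all genes tested. Relative to each gene's own mean, the median log2 deviation of the 78 was 0.026, 0.26 and -0.067 in STAT3+ CM replicates 1 to 3 and -0.047, 0.052 and -0.25 in STAT3- CM replicates 1 to 3. STAT3+ CM replicate 2 thus stood highest and STAT3- CM replicate 3 lowest, and the other 4 libraries lay between with the groups interleaved. Within STAT3+ CM, replicate 2 was the highest library for 69 of the 78 (88.5%), against 29.7% of all genes. Within STAT3- CM, replicate 3 was the lowest for 61 of the 78 (78.2%), against 42.0% of all genes. The group means of the median deviation were 0.074 in STAT3+ CM and -0.082 in STAT3- CM. Their difference of 0.16 was about as large as the SD of 0.16 between libraries of a group.

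**Figure D1:**
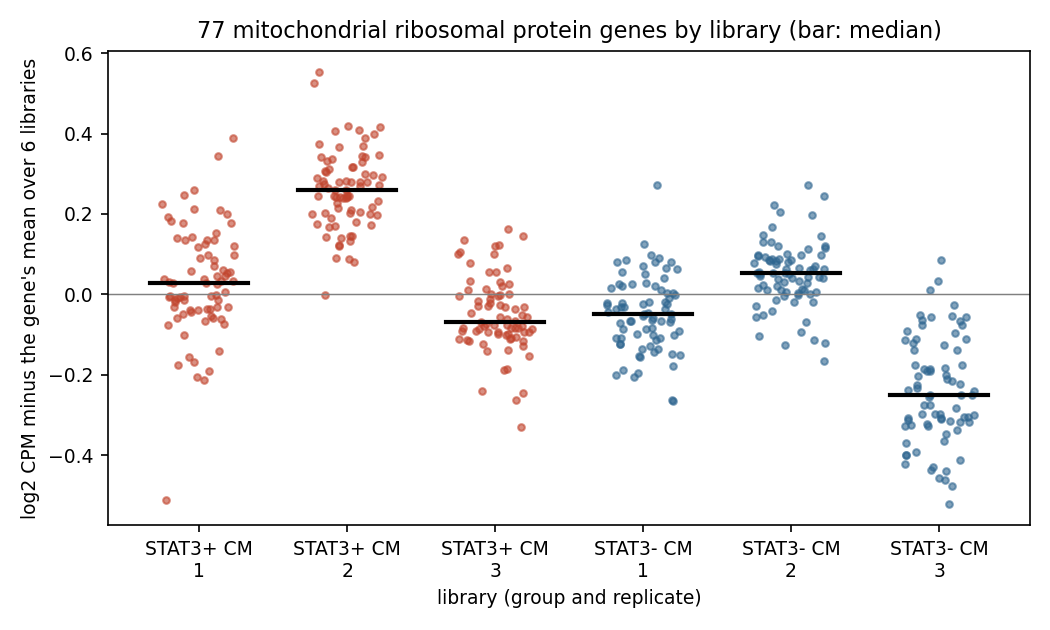
The plot shows log2 CPM minus the gene's mean over 6 libraries (vertical axis) for 77 genes (points, Mrpl53 left out) in each library (horizontal axis), with STAT3+ CM in red, STAT3- CM in blue and a black bar at the median. The cloud as a whole is highest in STAT3+ CM replicate 2, with a median over all 78 genes of 0.26, and lowest in STAT3- CM replicate 3, at -0.25.

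As a share of all counts, the 78 genes took 0.591%, 0.701% and 0.605% in STAT3+ CM replicates 1 to 3 and 0.586%, 0.619% and 0.540% in STAT3- CM replicates 1 to 3. Summed over the 78 genes, the level was 6434 ± 765 CPM in STAT3+ CM and 5742 ± 597 CPM in STAT3- CM (SD, n = 3 each), a ratio of 1.12, with ranges of 5860 to 7302 and 5096 to 6272 CPM that overlapped. The median log2 fold change was 0.078 without STAT3+ CM replicate 2, with 63 genes positive, and 0.085 without STAT3- CM replicate 3, with 64 positive. It was 0.23 without STAT3+ CM replicate 3 and also 0.23 without STAT3- CM replicate 2, and 0 genes were called in any of these fits. STAT3- CM replicate 3 and STAT3+ CM replicate 1 were known to stand apart from earlier results, and without this pair the median was 0.12 with 72 genes positive. Without STAT3+ CM replicate 3, 10 of the 78 stood at an unadjusted p under 0.05 by edgeR, all higher. The share over all genes was 9.45% in either direction and 3.78% higher. Without STAT3- CM replicate 2, 2 stood there, where the share was 3.22% in either direction and 0.941% higher.

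In 2 of the 78 genes the 3 libraries of STAT3+ CM lay above all 3 of STAT3- CM, and in 0 below, where 7.95% of all genes tested had groups that did not overlap, with 3.78% higher and 4.18% lower. Mrpl22 encodes a protein that lines the tunnel through which the new chain leaves the large subunit. It stood at 55.6, 63.1 and 56.0 CPM in STAT3+ CM and at 48.5, 54.3 and 47.4 CPM in STAT3- CM (log2 ratio 0.22 ± 0.12 SE). Mrps10 encodes a small subunit protein of a family shared with bacteria. It stood at 72.3, 78.7 and 75.3 CPM in STAT3+ CM and at 58.3, 70.3 and 67.4 CPM in STAT3- CM (log2 ratio 0.21 ± 0.12 SE). In both genes the gap between the nearest libraries of the groups was under 3 CPM. The number of genes without overlap was 31 without STAT3+ CM replicate 3 and 27 without STAT3- CM replicate 2. Of all genes 28.0% and 18.1% had no overlap in these fits, with 13.4% and 8.7% higher.

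The smallest unadjusted p-values were those of Mrps36, Mrpl57, Mrpl18 and Mrps33. Mrps36, counted with the small subunit by its name, is now known as an adapter subunit of the oxoglutarate dehydrogenase complex of the citric acid cycle. It stood at 49.7, 54.1 and 40.5 CPM in STAT3+ CM and at 38.7, 42.1 and 35.5 CPM in STAT3- CM (log2 ratio 0.31 ± 0.14 SE). STAT3+ CM replicates 1 and 2 were above every STAT3- CM library, and replicate 3 was among them. Mrpl57, a large subunit protein specific to mitochondria, stood at 70.9, 68.7 and 49.0 CPM in STAT3+ CM and at 51.3, 52.0 and 47.8 CPM in STAT3- CM (log2 ratio 0.32 ± 0.15 SE). Here too STAT3+ CM replicate 3 lay among the STAT3- CM libraries. Mrpl18, a protein of the central protuberance at the top of the large subunit, stood at 187, 203 and 157 CPM in STAT3+ CM and at 149, 169 and 132 CPM in STAT3- CM (log2 ratio 0.28 ± 0.14 SE). Its groups overlapped through STAT3+ CM replicate 3 and STAT3- CM replicate 2. Mrps33, a small subunit protein specific to mitochondria, stood at 104.9, 124 and 93.8 CPM in STAT3+ CM and at 92.3, 94.5 and 83.0 CPM in STAT3- CM (log2 ratio 0.26 ± 0.14 SE). Again a single pair of libraries, STAT3+ CM replicate 3 and STAT3- CM replicate 2, made the groups overlap.

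Besides Mrpl22, the next genes by p were Mrps31, Mrpl1, Mrps26, Mrps16 and Mrps18c, with unadjusted p-values of 0.103 to 0.111 by edgeR. Mrpl1, of the mobile stalk beside the tRNA exit site, stood at 87.0, 111 and 102.7 CPM in STAT3+ CM against 76.6, 92.9 and 84.9 CPM in STAT3- CM (log2 ratio 0.24 ± 0.13 SE). Only STAT3+ CM replicate 1 lay within the range of the STAT3- CM libraries. Mrps16, a small subunit protein of a bacterial family, stood at 112.4, 112.3 and 85.8 CPM in STAT3+ CM against 82.4, 87.0 and 93.0 CPM in STAT3- CM (log2 ratio 0.24 ± 0.14 SE). It departed from the usual order, since STAT3- CM replicate 3 was the highest of its group. The mitochondria-specific Mrps26 averaged 78.4 ± 13.1 CPM in STAT3+ CM against 64.2 ± 10.4 CPM in STAT3- CM (log2 ratio 0.29 ± 0.16 SE), and Mrps31 averaged 46.7 ± 3.92 against 39.1 ± 5.90 CPM (0.26 ± 0.14 SE). In both, STAT3- CM replicate 3 was the lowest library of all 6.

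**Figure D2:**
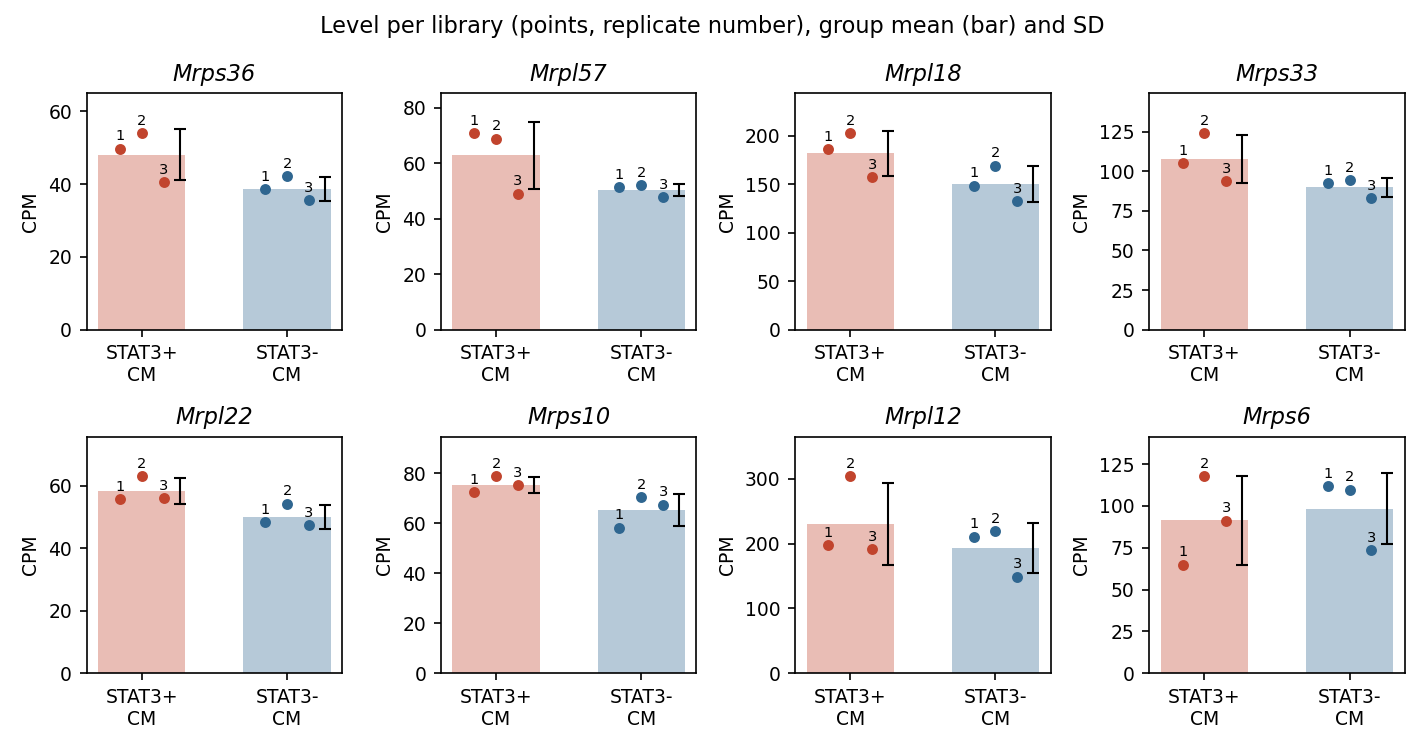
The plots show CPM (vertical axis) of 8 genes in the 3 STAT3+ CM (red) and 3 STAT3- CM (blue) libraries, each point with its replicate number, the bar at the group mean and the black line at ± SD. The groups are apart in Mrpl22 and Mrps10 and overlap in the other 6, and Mrps6 has the lower mean in STAT3+ CM, 91.3 against 98.5 CPM.

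Large and small subunit genes had similar medians. The 49 Mrpl genes had a median log2 fold change of 0.18 with 48 positive, and the 29 Mrps genes one of 0.17 with 28 positive. Placed by structure, where Mrps18a and Mrps30 sit in the large subunit and Mrps36 in neither, the medians were 0.18 for 51 large subunit genes and 0.16 for 26 small subunit genes. The 46 proteins listed with families shared with bacterial ribosomes had a median of 0.19, and 31 listed as found only in mitochondrial ribosomes 0.15. The second list also held Mrps18a and Mrps18b, whose family is shared with bacteria. In both sets all but 1 gene were positive. By place in the large subunit, all 6 genes of the stalks and their base were positive (median 0.17), as were all 9 of the central protuberance (0.14), and 7 of 8 at the tunnel exit (0.17). Within the central protuberance the log2 ratios ran from 0.069 in Mrpl46 to 0.28 in Mrpl18, and Mrpl40, at 99.03 ± 16.4 CPM in STAT3+ CM against 83.5 ± 16.4 CPM in STAT3- CM, was next to Mrpl18 (0.25 ± 0.17 SE). At the tunnel exit Mrpl17 and Mrpl22 (both 0.22), Mrpl24 (0.20) and Mrpl47 (0.18) were above the median of the 78, and Mrpl44 (0.15), Mrpl23 (0.12), Mrpl39 (0.083) and Mrpl45 (-0.046) below it, with SEs of 0.11 to 0.17. Differences between these sets were not tested.

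**Figure D3:**
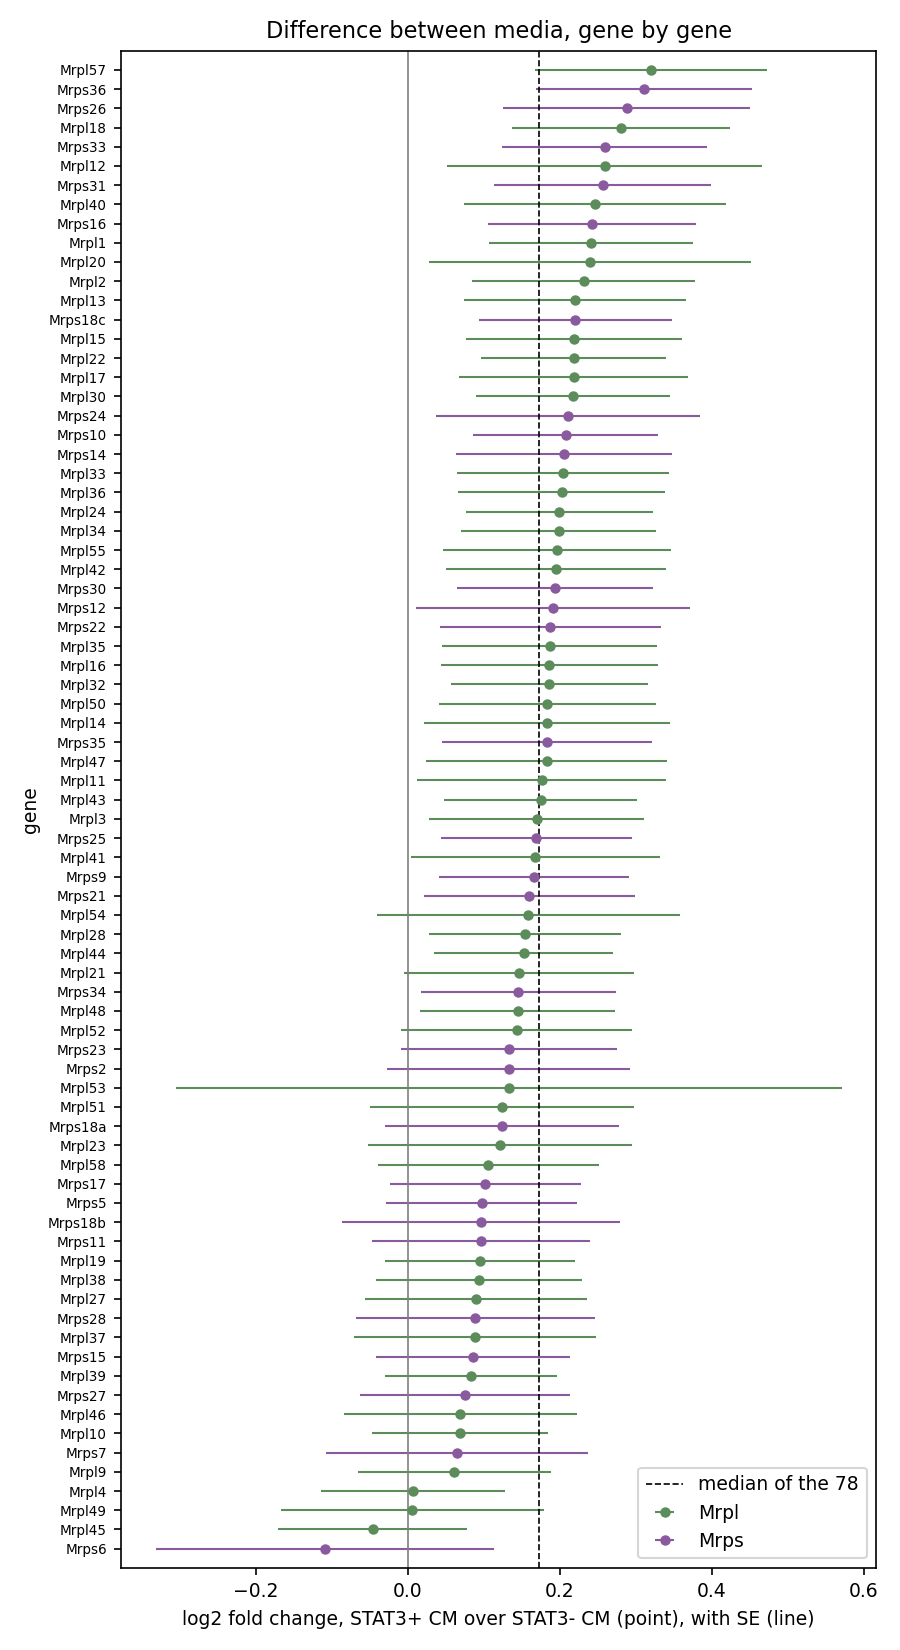
The plot gives the log2 fold change of STAT3+ CM over STAT3- CM (horizontal axis; point, with its SE as a line) for each of the 78 genes (vertical axis), Mrpl in green and Mrps in purple. Of the points 76 lie right of 0, around the dashed median at 0.17, and Mrps6 and Mrpl45 lie left of it.

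A few genes were described for the roles of their proteins. Mrpl12, the mobile stalk protein that recruits translation factors, stood at 198, 304 and 191 CPM in STAT3+ CM and at 211, 219 and 149 CPM in STAT3- CM (log2 ratio 0.26 ± 0.21 SE). STAT3+ CM replicate 2 was far above the other 5 libraries, and without it the log2 ratio was 0.012, against 0.38 without STAT3+ CM replicate 3. Mrpl12 had one of the widest spreads of the 78, an SD of log2 CPM of 0.33. Mrps12, at the decoding site of the small subunit, stood at 39.9, 54.4 and 38.8 CPM in STAT3+ CM and at 43.3, 42.7 and 30.4 CPM in STAT3- CM (log2 ratio 0.19 ± 0.18 SE). Its STAT3+ CM replicates 1 and 3 were below STAT3- CM replicates 1 and 2, and without STAT3+ CM replicate 2 its log2 ratio was 0.019. Mrpl58, the peptidyl-tRNA hydrolase known as ICT1, which releases stalled chains, averaged 66.0 ± 11.5 CPM in STAT3+ CM and 61.3 ± 2.55 CPM in STAT3- CM (log2 ratio 0.11 ± 0.15 SE). Mrpl36, a small zinc-binding protein of a bacterial family, averaged 80.2 ± 10.7 CPM in STAT3+ CM and 69.7 ± 6.16 CPM in STAT3- CM (log2 ratio 0.20 ± 0.14 SE). Mrps30, a large subunit protein despite its name, averaged 97.05 ± 10.7 CPM in STAT3+ CM and 84.8 ± 7.23 CPM in STAT3- CM (0.19 ± 0.13 SE). In all 5 of these genes the libraries of the groups overlapped.

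The S18 family has 3 mitochondrial members that descend from a single bacterial protein, and they take different places in the ribosome. Mrps18c, at the bacterial position in the small subunit, averaged 71.8 ± 7.26 CPM in STAT3+ CM and 61.6 ± 4.56 CPM in STAT3- CM (log2 ratio 0.22 ± 0.13 SE). Mrps18b, elsewhere in the small subunit, averaged 83.8 ± 13.3 CPM in STAT3+ CM and 78.4 ± 17.6 CPM in STAT3- CM (log2 ratio 0.097 ± 0.18 SE). Mrps18a, in the large subunit, averaged 52.3 ± 8.36 CPM in STAT3+ CM and 48.0 ± 6.52 CPM in STAT3- CM (log2 ratio 0.12 ± 0.15 SE). The 3 fold changes lay within about 1 SE of each other.

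A few genes did not follow the rest. Mrps6, the small subunit protein of the bS6 family, stood at 64.9, 117.7 and 91.3 CPM in STAT3+ CM and at 112, 109.7 and 73.8 CPM in STAT3- CM (log2 ratio -0.11 ± 0.22 SE). STAT3+ CM replicate 1 was the lowest library there, and without it the log2 fold change was 0.085. In the GENCODE M21 annotation exons of Mrps6 overlap those of Gm49711 and Slc5a3 on the same strand. The larger of these overlaps takes 19.9% of the exon bases of Mrps6. Slc5a3, an inositol transporter gene, stood at 30.2, 34.0 and 60.2 CPM in STAT3+ CM and at 47.4, 40.3 and 91.3 CPM in STAT3- CM (log2 ratio -0.52 ± 0.33 SE). How reads shared by the genes were counted is not given in the sources used here, and its part in the value of Mrps6 was not tested. Mrpl45, which tethers the ribosome to the inner membrane at the tunnel exit, averaged 123.6 ± 12.3 CPM in STAT3+ CM and 127.6 ± 7.84 CPM in STAT3- CM (log2 ratio -0.046 ± 0.12 SE). Mrpl4 and Mrpl49, with log2 fold changes of 0.0064 (SE 0.12) and 0.0058 (SE 0.17), were closest to 0, and their sign depended on the alternative used.

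After Mrpl53, the genes with the widest spread of log2 CPM over the 6 libraries were Mrps6, Mrpl20 and Mrpl12, with SDs of 0.35, 0.34 and 0.33, beside a median of 0.196 for the 78. Mrpl20, a large subunit protein of a bacterial family, stood at 136, 220.4 and 152.7 CPM in STAT3+ CM against 163, 161.6 and 106.7 CPM in STAT3- CM (log2 ratio 0.24 ± 0.21 SE). As in Mrpl12, STAT3+ CM replicate 2 was at the top and STAT3- CM replicate 3 at the bottom, while STAT3+ CM replicates 1 and 3 were both below STAT3- CM replicates 1 and 2. Without STAT3+ CM replicate 2 its log2 ratio was 0.0074, and without STAT3- CM replicate 3 it was 0.065. The narrowest spread was that of Mrpl39, with an SD of 0.076, at 72.2, 74.8 and 70.4 CPM in STAT3+ CM against 69.9, 71.4 and 63.9 CPM in STAT3- CM (log2 ratio 0.083 ± 0.11 SE). Even there the same 2 libraries were the highest and the lowest.

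Mrpl53, a large subunit protein near the base of the stalk, was barely detected, with 13 to 34 counts per library where each of the other 77 genes had at least 1222. It stood at 0.286, 0.817 and 0.451 CPM in STAT3+ CM and at 0.640, 0.319 and 0.433 CPM in STAT3- CM, with no order between the groups. In the GENCODE M21 annotation 88.0% of its exon bases also belong to Gm42688 on the same strand, which had 1.33 ± 0.360 CPM in STAT3+ CM and 1.67 ± 0.323 CPM in STAT3- CM, so the count of Mrpl53 may not give its level. Exons of 33 of the 78 genes overlap another annotated gene, 8 on the same strand and 28 on the opposite one, and the strand setting of the counting is not given in the sources used here.

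Compared per length, as CPM per kilobase of the median annotated transcript and averaged over all 6 libraries, the 78 genes had a median level of 67.5, beside 9.26 over all genes tested with a known length. Mrpl20 was highest at 317 CPM per kilobase, followed by Mrpl33 (189.5), the small subunit's Mrps21 (185.6), Mrpl30 (182) and Mrpl42 (163). The log2 ratios of the last 4 were 0.20, 0.16, 0.22 and 0.195, each with an SE of 0.13 to 0.14, near the median of the 78. After Mrpl53 the lowest were Mrps25 (9.72), Mrpl47 (15.1), Mrps26 (16.7) and Mrpl19 (17.7), whose median annotated transcripts are among the longest of the 78. Their log2 ratios were 0.17, 0.18, 0.29 and 0.094, so the highest and the lowest genes did not differ in direction. The order by level depends on the annotated transcript lengths used.

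The fold changes of all genes went with transcript length, and most of these genes are short. The median transcript was 1052 bases among the 78 and 1956 bases among all genes tested with a known length. In 10 bins of equal size by length, the median log2 fold change over all genes was 0.0995 in the shortest bin and -0.15 in the longest. The trend was steepest in STAT3+ CM replicate 2, where the median log2 deviation was 0.15 in the shortest and -0.26 in the longest bin, and it ran the other way in STAT3- CM replicate 3, at -0.042 and 0.15, and less steeply in STAT3+ CM replicate 3 and STAT3- CM replicate 1. In each of the 10 bins the median of the mitochondrial ribosomal protein genes was above that of all genes, for example 0.19 against 0.085 in the third bin (889.5 to 1226.5 bases, 16 of the 78). The 6 bins of the longer transcripts held between 2 and 6 of the 78 each. With the length trend of each library removed, a step added after the trend was seen, the median log2 fold change of the 78 was 0.12 and 74 were positive, and 0 were called. What the length trend stands for was not tested.

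**Figure D4:**
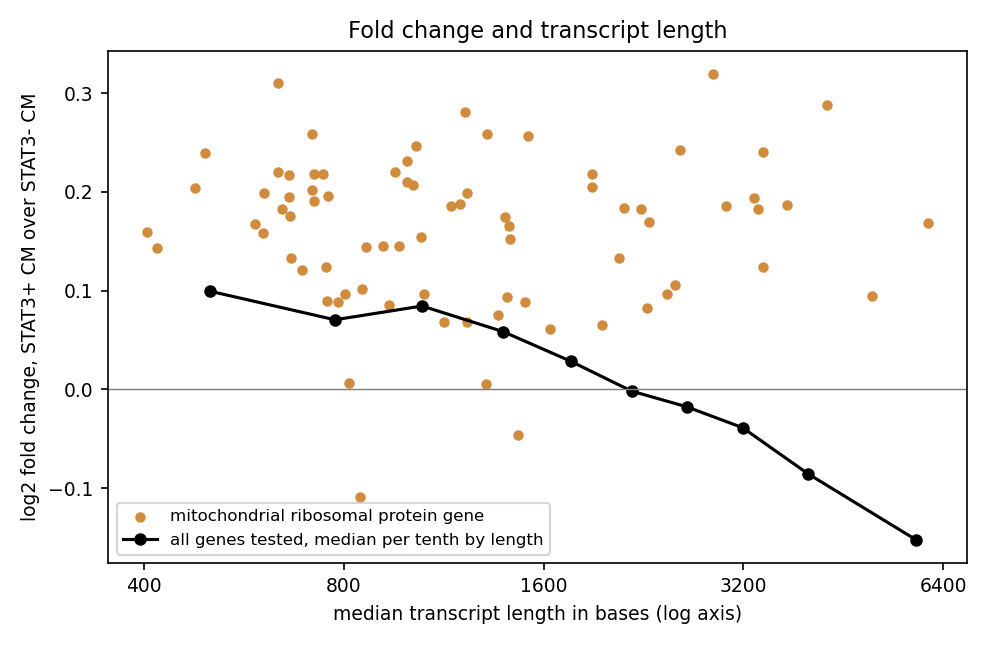
The plot sets the log2 fold change of STAT3+ CM over STAT3- CM (vertical axis) against median transcript length in bases on a log axis (horizontal axis), with orange points for 77 mitochondrial ribosomal protein genes (Mrpl53 left out) and black points for the median of all genes tested in each of 10 length bins. The black line falls with length to -0.15, and most orange points lie above it at all lengths.

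In GENCODE M21, 33 of the 78 (42.3%) start within 1000 bases of the start of a protein-coding gene on the opposite strand. Of the 11862 protein-coding genes tested 17.0% do. One such pair lies within the family, Mrpl46 and Mrps11, with log2 ratios of 0.069 ± 0.15 and 0.096 ± 0.14 (SE). Mrpl36 is paired with Ndufs6, a subunit of complex I, at log2 ratios of 0.20 and 0.25, and Mrps12 with Sars2, the mitochondrial seryl-tRNA synthetase, at 0.19 and -0.19. Mrpl47 is paired with Ndufb5, also of complex I, at 0.18 and 0.19, and Mrpl43 with Twnk, the helicase of mitochondrial DNA, which had -0.042. The 30 tested neighbours outside the family had a median log2 fold change of -0.016 with 15 positive, and a median transcript of 2196 bases. None had an unadjusted p under 0.05 by edgeR, where 3.64% of all genes tested did.

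Promoter windows of 300 bases, from 250 before to 50 after the start, were available from RefSeq (GRCm38.p6) for 69 of the 78 genes, and each motif was searched on both strands. The letters CCGGAAG, the core bound by ETS family factors such as GABP, stood in 25 of the 69 (36.2%), against 18.9% of 10262 promoters of genes tested and 9.12% of all 27025 promoters. The NRF1 motif, GCGCA and GCGC with 1 base between them, stood in 13 (18.8%), against 10.7% and 4.78%, and AAGATGG, the YY1 motif, in 13 (18.8%), against 7.43% and 6.48%. The E-box CACGTG, bound by MYC among others, stood in 5 (7.25%), against 10.2% and 7.24%, and GGGCGG, the Sp1 motif, in 34 (49.3%), against 63.8% and 35.9%. None of the motifs contains another, but the last 3 letters of the ETS motif can be the first 3 of the YY1 motif, which occurred in 0 of the 69 promoters. A match is a match of letters, not a binding site. The sequences in lower case, with ETS, NRF1 and YY1 matches in capitals, are the promoters of both genes whose groups were apart (Mrpl22, Mrps10), of Mrpl18 with the largest log2 ratio among genes averaging over 100 CPM, of the decoding protein gene Mrps12, of the abundant stalk gene Mrpl12 and of Mrps6, which went the other way.
Mrpl22, chr11:58171414-58171713, plus strand: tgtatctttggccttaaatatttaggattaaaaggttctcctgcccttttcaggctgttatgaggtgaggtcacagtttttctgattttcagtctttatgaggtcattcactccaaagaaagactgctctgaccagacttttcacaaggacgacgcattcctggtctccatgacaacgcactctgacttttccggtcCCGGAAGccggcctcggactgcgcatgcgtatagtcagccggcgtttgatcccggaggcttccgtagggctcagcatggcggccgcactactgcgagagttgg
Mrps10, chr17:47368947-47369246, plus strand: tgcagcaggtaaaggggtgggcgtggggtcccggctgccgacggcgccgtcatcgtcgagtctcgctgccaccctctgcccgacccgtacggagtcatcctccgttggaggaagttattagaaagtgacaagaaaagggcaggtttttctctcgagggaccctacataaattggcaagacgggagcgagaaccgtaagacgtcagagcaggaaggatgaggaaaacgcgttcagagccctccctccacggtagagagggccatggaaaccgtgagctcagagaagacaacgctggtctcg
Mrpl18, chr17:12916042-12916341, minus strand: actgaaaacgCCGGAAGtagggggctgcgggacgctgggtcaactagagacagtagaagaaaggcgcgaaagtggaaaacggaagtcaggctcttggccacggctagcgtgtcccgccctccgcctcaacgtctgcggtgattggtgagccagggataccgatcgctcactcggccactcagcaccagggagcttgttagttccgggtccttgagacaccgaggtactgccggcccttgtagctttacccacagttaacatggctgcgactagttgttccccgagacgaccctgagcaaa
Mrps12, chr7:28741772-28742071, minus strand: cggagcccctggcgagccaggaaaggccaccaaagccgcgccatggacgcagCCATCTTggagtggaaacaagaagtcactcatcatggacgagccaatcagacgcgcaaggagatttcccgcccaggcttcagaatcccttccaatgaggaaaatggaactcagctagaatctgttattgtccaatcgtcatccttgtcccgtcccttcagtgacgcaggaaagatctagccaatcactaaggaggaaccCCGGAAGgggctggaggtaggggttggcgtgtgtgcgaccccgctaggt
Mrpl12, chr11:120484387-120484686, plus strand: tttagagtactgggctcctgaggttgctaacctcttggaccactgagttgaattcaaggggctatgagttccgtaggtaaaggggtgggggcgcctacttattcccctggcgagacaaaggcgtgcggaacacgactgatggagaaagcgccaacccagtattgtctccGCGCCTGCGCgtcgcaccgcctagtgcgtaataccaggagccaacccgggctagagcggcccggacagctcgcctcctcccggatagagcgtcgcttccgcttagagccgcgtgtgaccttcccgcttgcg
Mrps6, chr16:92058086-92058385, plus strand: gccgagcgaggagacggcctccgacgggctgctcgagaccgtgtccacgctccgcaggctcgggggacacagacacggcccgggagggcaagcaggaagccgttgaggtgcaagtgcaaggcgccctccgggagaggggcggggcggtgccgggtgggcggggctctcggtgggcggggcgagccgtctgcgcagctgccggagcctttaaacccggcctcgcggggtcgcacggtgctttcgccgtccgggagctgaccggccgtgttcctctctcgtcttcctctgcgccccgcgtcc
Mrpl22 and Mrpl18 each hold 1 ETS match, Mrps12 holds 1 ETS and 1 YY1 match, and Mrpl12 holds 1 NRF1 match. Mrps10 and Mrps6 hold none of these, and Mrps6 holds 4 matches of the Sp1 letters.

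The rest of the machinery for mitochondrial gene expression was called in neither direction, with 0 genes past the threshold in every list by edgeR and a smallest adjusted p of 0.989. The 5 subunits with other names were all positive, with a median log2 fold change of 0.13, among them Chchd1 at 121.9 ± 21.1 CPM in STAT3+ CM and 102.1 ± 6.56 CPM in STAT3- CM (0.26 ± 0.14 SE). Of 25 ribosome assembly genes 20 were positive (median 0.069, and -0.016 without STAT3- CM replicate 3), and first by p was Malsu1, which guards the large subunit until it is mature, at 36.2 ± 5.07 CPM in STAT3+ CM and 29.8 ± 0.432 CPM in STAT3- CM (0.28 ± 0.14 SE), followed by Rpusd3 (0.24 ± 0.15 SE) and Gtpbp10 (0.21 ± 0.13 SE). Of 16 translation factors and mRNA partners 13 were positive (median 0.096), with 1 at an unadjusted p under 0.05 by edgeR, beside 3.64% of all genes tested. That gene, Slirp, which stabilizes mitochondrial mRNAs, stood at 72.6, 79.7 and 63.9 CPM in STAT3+ CM and at 60.1, 61.9 and 56.1 CPM in STAT3- CM (log2 ratio 0.28 ± 0.13 SE). Its groups did not overlap, and neither did those of Malsu1, Rpusd3 and Gtpbp10. Of the assembly genes 3 were higher without overlap and 1 lower, where 3.78% and 4.18% of all genes tested were. Its partner Lrpprc had -0.020 ± 0.14 (SE), Tufm, the elongation factor that brings tRNAs to the ribosome, 0.081 ± 0.13, and Tsfm, which recharges Tufm, 0.19 ± 0.12.

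Mitochondrial tRNA synthetases lay around 0, with 8 of 17 positive and a median of -0.0089, and Wars2, Sars2 and Lars2, the 3 smallest in p, had -0.22, -0.19 and -0.19. So did 10 genes of mitochondrial DNA upkeep and transcription, with 5 positive and a median of 0.044, or -0.0072 without STAT3- CM replicate 3. In that list the RNA polymerase Polrmt had -0.13 ± 0.12 (SE), its elongation factor Tefm 0.23 ± 0.15 and the packaging factor Tfam 0.14 ± 0.14. The single-strand binding protein Ssbp1 had 0.21 ± 0.12 and the DNA polymerase Polg -0.17 ± 0.12. In that list only the groups of Ssbp1 (higher) and Polg (lower) did not overlap, beside 3.78% higher and 4.18% lower among all genes tested. Of 15 genes encoded by mitochondrial DNA 13 were positive (median 0.19), with mt-Co2 at 34.4, 50.8 and 31.8 CPM in STAT3+ CM and at 30.95, 27.9 and 28.5 CPM in STAT3- CM (log2 ratio 0.42 ± 0.18 SE). It was the only one at an unadjusted p under 0.05 by edgeR, beside 3.64% of all genes tested. Of this list only mt-Co2 had groups that did not overlap, beside 7.95% of all genes tested. The RNA of the small subunit, mt-Rnr1, had 0.23 ± 0.14 (SE). Polyadenylated RNA had been selected, so these levels depend on the short tails of mitochondrial transcripts. Over the 9 nuclear regulators tested the median was 0.028, or -0.015 with library totals only as scaling, with 6 positive, among them Esrra at 0.22 ± 0.13 (SE), while Sp1 had -0.19 ± 0.14. Myc, a transcription factor that drives growth in activated T cells, stood at 338, 344 and 344 CPM in STAT3+ CM and at 283, 295 and 307 CPM in STAT3- CM (log2 ratio 0.21 ± 0.12 SE). Its groups did not overlap, and 2 of the 9 regulators were higher without overlap, where 3.78% of all genes tested were. The order of libraries for Myc differed from that of the ribosomal genes, since STAT3- CM replicate 3 was the highest of its group.

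**Figure D5:**
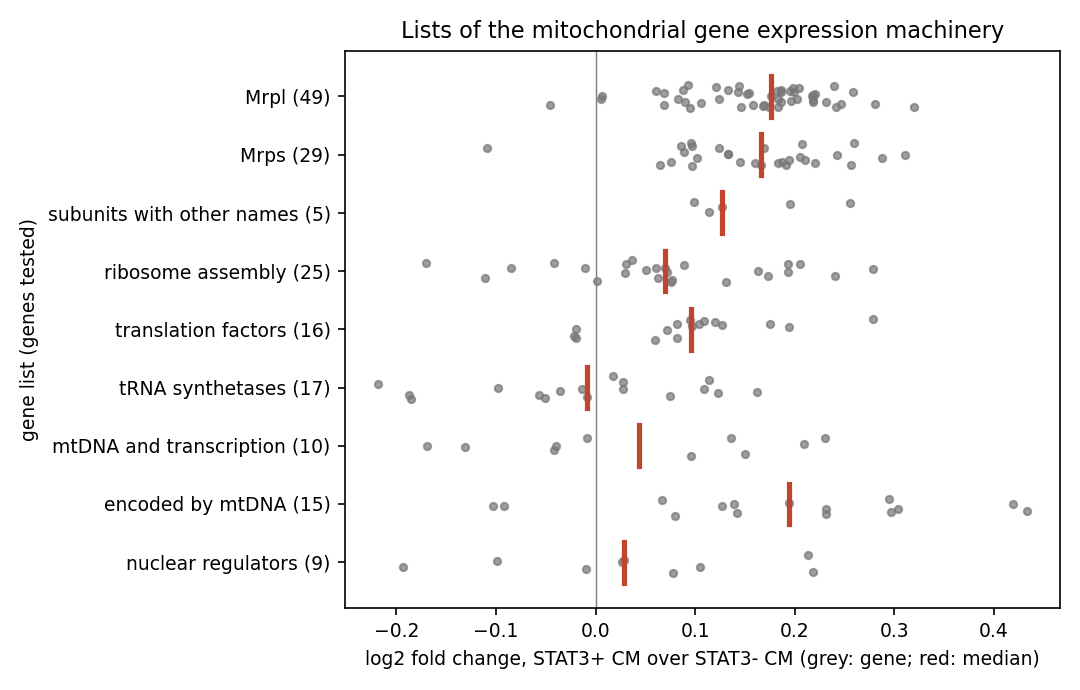
The plot gives the log2 fold change of STAT3+ CM over STAT3- CM (horizontal axis) for each tested gene (grey) and the median (red) of 9 lists (vertical axis, with the number of genes tested). The medians are highest for the Mrpl, Mrps and mitochondrially encoded lists, at 0.18, 0.17 and 0.19, and near 0 for the tRNA synthetases. The median transcript was 1134, 1018 and 955 bases in the former and 2191 bases in the tRNA synthetases. Over all genes the fold changes fell with length, and differences between the lists were not tested.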

How the data were processed

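Deposited values were read counts per gene made by the authors, 1 column per library. The submitters' processing notes name the GRCm39 build with Cufflinks 2.2.1, TopHat2 2.0.10, SAMtools 0.1.19, Bowtie 1.0.0 and FastQC. No counting program, annotation or strand setting is given in the sources used here. The lowest gene total in the table was 40. Libraries came from 500 ng of RNA with a quality score of 9.0 to 9.8, by a directional kit, per the labels' protocols.

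Counts were filtered with filterByExpr (14319 genes kept), scaled by TMM (factors 0.9605 to 1.06) and compared with the quasi-likelihood F test of edgeR 4.0.16 (R 4.3.3, robust, two-sided). P-values were adjusted over all genes by Benjamini and Hochberg's method, and 0.05 was the threshold. Each SE was taken from the fold change and its F statistic. Log2 CPM used a prior count of 2. The fit was also run on simulated counts in which 200 genes were changed by more than the typical difference seen here. Genes were drawn independently there, so that run does not bear on small differences shared by many genes. The alternatives, with DESeq2 1.42.0 and limma 3.58.1 among them, are in the closing section. A gene's transcript length is the median over its annotated transcripts in GENCODE M21 (GRCm38), matched by symbol for 14121 of 14481 genes, so no coordinates of the files' build are given. Promoters were matched by symbol.

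The family, lists and outlying libraries were chosen with earlier results of these data known. Named were the 10 genes with the smallest p, those whose groups did not overlap, the 5 highest and 5 lowest per kilobase, the 3 with the widest spread, 9 genes chosen for their roles and the 3 of each other list with the smallest p, plus 5 others by name. Mrpl45, Mrpl4, Mrpl49, Mrpl39, Mrpl40, Mrpl46, Mrps11, Mrpl43, Mrpl17, Mrpl23, Mrpl24, Mrpl44, Slc5a3, Gm42688 and the neighbouring genes were chosen after their values were seen. Not every gene the rule takes is described.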

Additional observations from a re-analysis of the deposited data

How the results depend on the processing

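Over 19 alternatives, 6 of which left out 1 library each, 0 of the 78 genes passed the threshold. In 5 of these alternatives genes outside the family did, at 0.331% of genes with DESeq2, 0.112% with limma-voom given quality weights, 0.0698% with both outlying libraries (replicate 3 of STAT3- CM, replicate 1 of STAT3+ CM) left out, 0.125% without STAT3- CM replicate 3 and 1 gene without STAT3- CM replicate 1. The median log2 fold change of the 78 stayed positive in every alternative. It was 0.12 to 0.185 in the 13 that kept all libraries or left out the pair. With 1 library left out it was 0.078 to 0.23. None of the alternatives left out both STAT3+ CM replicate 2 and STAT3- CM replicate 3, whose median log2 deviations were 0.26 and -0.25. The deviations were 0.026 and -0.067 in STAT3+ CM replicates 1 and 3, and -0.047 and 0.052 in STAT3- CM replicates 1 and 2.

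The number at an unadjusted p under 0.05 was 1 with upper quartile scaling (3.61% of all genes), edgeR's older quasi-likelihood method (3.61%), limma-voom given quality weights (8.05%), the length trend removed (3.56%) or the pair left out (7%). It was 0 to 10 with 1 library left out, where 2.03% to 9.45% of all genes stood there. With the replicate number as a block it was 3 (4.95%). Whether equal replicate numbers pair the libraries is not given in the sources used here. Correlations across genes of equal numbers, after group means were removed, were -0.26, 0.28 and 0.18. By these, 2 of 6 libraries were closest to their own number. With 3 libraries per group such values cannot decide whether the libraries are paired. The number of genes whose groups did not overlap was 5 with upper quartile scaling (8.21% of all genes), 5 with library totals only (7.63%), 7 without the pair (35.3%), 1 with the length trend removed (7.53%), and 2 to 31 with 1 library left out (11.3% to 28.0%).

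The sign turned under at least 1 alternative in 21 of the 78, and in 5 of the 28 that the naming rule took. Of these 5, Mrpl58 was -0.0019 without the pair, Mrps18b -0.0048 with limma-voom and quality weights, and with 1 library left out Mrpl53 ran from -0.30 to 0.43, Mrps18a from -0.014 to 0.20, Mrps18b from -0.072 to 0.24 and Mrps6 from -0.33 to 0.085. Over all alternatives Mrpl4 ran from -0.063 to 0.070, Mrpl49 from -0.15 to 0.15, Mrpl45 from -0.10 to 0.032 and Mrpl46 from -0.058 to 0.16. The medians of the assembly and DNA upkeep lists also turned, at -0.016 and -0.0072 without STAT3- CM replicate 3. That of the regulators turned too, at -0.015 with library totals only. The tRNA synthetase median, -0.0089 in the main fit, ran from -0.051 to 0.036 over the 13 alternatives above. It ran from -0.023 to 0.031 with 1 library left out. The cause was not tested. The median SE of a gene was 0.14, close to the median difference of 0.17.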
